A study of Mus musculus with 4 samples.

Results

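Activated splenic T cells of 8-month-old Cers6 knockout mice were set against those of 8-month-old wild-type mice, with 1 library for each genotype. All mice were of the C57BL/6 background, and all cells had been stimulated for 3 days with antibodies to CD3 and CD28 together with interleukin-2 before total RNA was sequenced. They are 2 of the 4 libraries of the series, and the other pair came from 2-month-old knockout and wild-type mice, whose cells were stimulated in the same way. A gene counted as measured where it reached 2 scaled counts per 1000000 (CPM) in at least 1 of the 8-month libraries, which held for 12011 of 35275 genes in the deposited table. The submitters speak of duplicate samples, but each genotype and age has 1 library here, and the labels do not say whether mice were pooled or which part of Cers6 was deleted. No difference below therefore has a replicate check, no p-value is given, and each interval is a 95% exact interval that covers counting error only. In bulk RNA, fewer cells of a type and less RNA per cell cannot be told apart.

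Ceramide synthases join a fatty acid to a sphingoid base to make ceramide, the parent of sphingomyelin and glycosphingolipids. The family members differ in the length of fatty acid that they prefer, and Cers6 prefers palmitate, giving C16 ceramide. Stimulation through the T cell receptor and CD28 drives resting T cells to divide, to raise ribosome, glycolytic and mitochondrial capacity, and to make cytokines, cytotoxic proteins and receptors for them.

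Cers6 (ENSMUSG00000027035, on the plus strand of chromosome 2 from 68861441 to 69114282 in GRCm38) was 9.23-fold lower in the 8-month knockout. Its scaled level was 3.38 CPM in the 8-month knockout and 32.0 CPM in the 8-month wild type, against 9.17 CPM in the 2-month knockout and 13.1 CPM in the 2-month wild type. The 8-month wild-type library was thus the highest of the 4 and the 8-month knockout library the lowest. The log2 fold at 8 months was -3.21 (interval -3.60 to -2.90), from 79 counts in the knockout and 678 counts in the wild type. At 2 months it was -0.51. Counts over the whole gene do not show whether the deleted part was covered, so a residual count is no measure of remaining enzyme.

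Among the other ceramide synthases, Cers4, which makes ceramides of longer chains, was higher in the knockout. It stood at 43.5 CPM in the 8-month knockout and 20.6 CPM in the 8-month wild type, and at 29.3 CPM in the 2-month knockout and 35.5 CPM in the 2-month wild type, with a log2 fold of 1.08 at 8 months (0.92 to 1.25). The 8-month wild-type level was the lowest of the 4 and the 8-month knockout level the highest. Cers5, which like Cers6 makes C16 ceramide, had 56.0 CPM in the 8-month knockout and 73.7 CPM in the 8-month wild type (log2 -0.40). Cers2, the synthase of very long chain ceramides, had 80.6 CPM in the knockout and 84.0 CPM in the wild type, a log2 fold of -0.06 whose interval (-0.16 to 0.03) includes 0. Per length, Cers2 was the most abundant of the family in both 8-month libraries, at 41.7 FPKM (fragments per kilobase of length, scaled to library size) in the knockout and 36.7 FPKM in the wild type. Cers6 was at 0.552 FPKM in the knockout and 4.40 FPKM in the wild type. Unlike the scaled CPM, FPKM was scaled by the library total alone. It is given to rank genes within a library and not to compare libraries. Cers1 had 6 counts in the knockout and 0 in the wild type, and Cers3 had 0 and 1, too few to compare.

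Of 51 listed sphingolipid genes, 41 were measured, of which 4 were 2-fold higher and 1 was 2-fold lower in the 8-month knockout, with a median log2 fold of -0.09. Over all measured genes 10.4% were 2-fold higher and 6.45% were 2-fold lower. The list's median turned positive, at 0.16, when counts were scaled by library size alone. The highest was Acer2, an alkaline ceramidase of the Golgi, at 7.23 CPM in the 8-month knockout and 1.79 CPM in the 8-month wild type, against 4.06 CPM and 3.27 CPM in the 2-month knockout and wild type. St3gal5, the sialyltransferase that makes ganglioside GM3, stood at 6.85 CPM in the knockout and 2.69 CPM in the wild type. The lowest was S1pr4, a sphingosine 1-phosphate receptor of lymphocytes, at 81.9 CPM in the 8-month knockout and 172 CPM in the 8-month wild type, with 153 CPM and 154 CPM in the 2-month knockout and wild type.

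Both 8-month libraries differ from the rest in ways that bear on every comparison between them. Total counts were 20342672 in the 8-month knockout, 21886108 in the 8-month wild type, 18145555 in the 2-month knockout and 24239344 in the 2-month wild type. The scaling factor of the 8-month knockout library was 1.15, whereas the other 3 lay between 0.947 and 0.968. Its 1000 most abundant genes took 53.2% of its counts, against 58.9% in the 8-month wild type and 58.0% and 59.1% in the 2-month knockout and wild type. Malat1, a nuclear long noncoding RNA, stood at 2661 CPM in the 8-month knockout and 1283 CPM in the 8-month wild type, against 898 CPM and 918 CPM in the 2-month knockout and wild type. The female-specific transcript Xist had 440.5 CPM in the 2-month wild type, while the other 3 libraries had at most 0.171 CPM. The Y-linked gene Ddx3y was present in all 4, at 78.9 CPM in the 8-month knockout, 41.4 CPM in the 8-month wild type, 49.1 CPM in the 2-month knockout and 22.4 CPM in the 2-month wild type, so the 2-month wild-type library held both transcripts.

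The 8-month knockout library was relatively richer in weakly expressed genes and in lincRNA and antisense RNA. Among the 1414 measured genes with a mean below 5 CPM over the 4 libraries, the median log2 fold was 0.51, and 32.5% were 2-fold higher in the knockout. Among the 120 genes at 1000 CPM or more it was -0.52, and none was 2-fold higher while 19 were 2-fold lower. By deposited gene type, the median was 0.61 for 226 lincRNAs, 0.73 for 142 antisense genes and -0.02 for 11120 protein-coding genes. The corresponding medians at 2 months were -0.17, -0.22 and -0.01. Whether the counting used strand is not given, so reads of an antisense gene and of the gene it overlaps may not be separable. Across protein-coding genes the fold at 8 months had a Spearman correlation of 0.352 with gene length and -0.253 with mean level. These are descriptions over genes of the same 2 libraries. The part of this slope with level in the gene groups below was not tested.

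**Figure D1:**
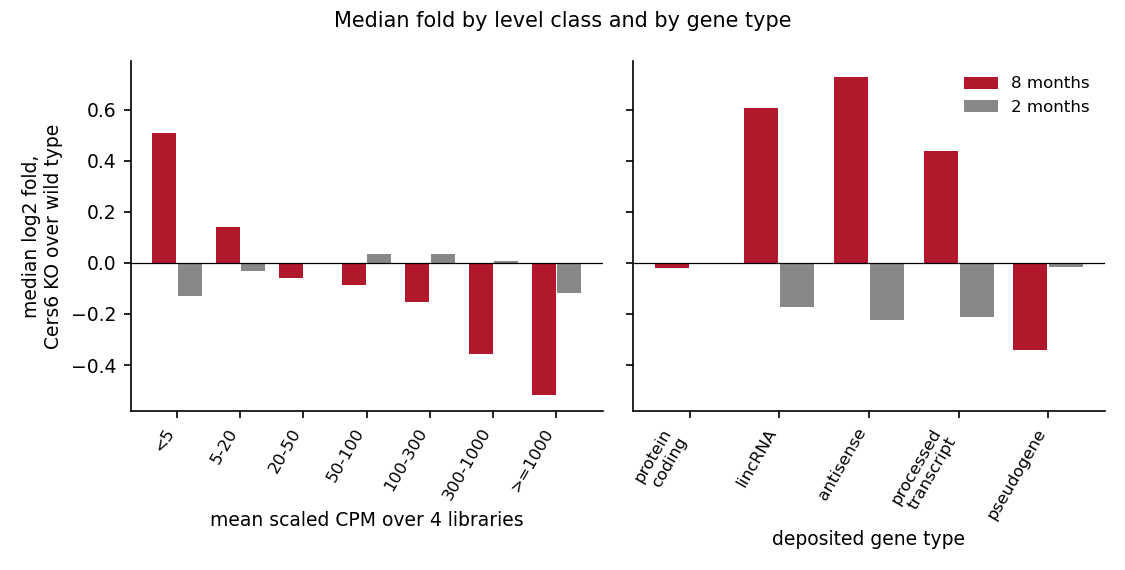
Median log2 fold of the Cers6 knockout over the wild type at 8 months (red) and 2 months (grey), for classes of mean level (left, scaled CPM) and of deposited gene type (right). The 8-month medians run from 0.51 in the lowest level class to -0.52 in the highest, with lincRNA, antisense and processed transcript genes above 0 and pseudogenes below.

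In all, 1248 of the 12011 measured genes (10.4%) were 2-fold or more higher in the 8-month knockout and 775 (6.45%) were 2-fold or more lower, so that 61.7% of these genes were higher. Scaling by library size alone moved the median of all genes up by 0.245 on the log2 scale and gave 82.4% higher. The whole counting interval lay beyond 2-fold for 709 of the higher and 489 of the lower genes. For comparison, 77 genes (0.676%) were 2-fold higher and 131 (1.15%) were 2-fold lower in the 2-month knockout than in the 2-month wild type, among 11398 genes measured there. In the authors' deposited table, 406 genes were marked higher and 190 lower in the 8-month knockout, at an adjusted p-value under 0.005 and a log2 fold beyond 1. Those calls rest on the same 2 libraries, 1 for each genotype, and already required a log2 fold beyond 1. That all marked genes measured here passed 2-fold in the same direction was thus nearly fixed in advance. It is no independent check.

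Which of the 8-month libraries stood apart differed from gene to gene. Of the 1248 higher genes, 576 (46.2%, or 4.8% of all measured genes) were at least 2-fold higher in the 8-month knockout than in all 3 other libraries, and 157 (12.6%, or 1.31%) were at least 2-fold lower in the 8-month wild type than in all 3 others. Of the 775 lower genes, 274 (35.4%, or 2.28% of all measured genes) were at least 2-fold lower in the 8-month knockout than in all 3 others, and 172 (22.2%, or 1.43%) were at least 2-fold higher in the 8-month wild type than in all others. A gene can meet both conditions. The gene groups below are given with the 2-month values for this reason. Their counts of 2-fold genes are to be set against the 10.4% higher and 6.45% lower of all measured genes.

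**Figure D2:**
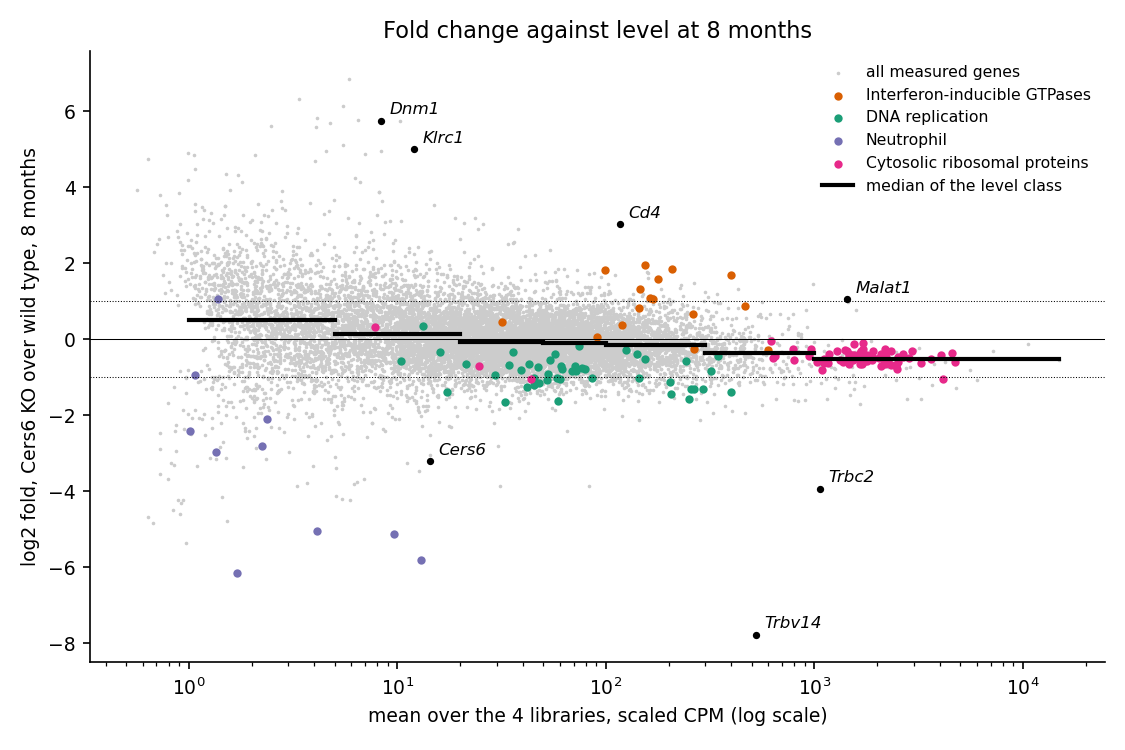
Log2 fold of the Cers6 knockout over the wild type at 8 months for each of 12011 measured genes, against its mean scaled CPM over the 4 libraries (log axis). Black bars are medians of level classes and dotted lines mark 2-fold; the interferon-inducible GTPases lie mostly above 0, while DNA replication and neutrophil genes lie mostly below.

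The wild-type library at 8 months was dominated by a single receptor beta-chain segment. Trbv14 made up 219 of 2960 Trbv counts in the 8-month knockout, a share of 7.40% (interval 6.48% to 8.40%), against 44007 of 44622 counts, or 98.6% (98.5% to 98.7%), in the 8-month wild type. In the 2-month knockout and wild type its shares were 5.14% and 5.12%. No segment exceeded 7.87% in the 8-month knockout, where Trbv1 led and 22 of 23 Trbv segments had counts. On the alpha side, Trav7d-5 took 35.5% of Trav counts in the 8-month wild type (278 of 783), while the leading Trav segment of the 8-month knockout, Trav8-2, took 6.31%. Near-identical Trav copies can exchange reads, so the segment within its family is uncertain. The constant segment Trbc2 followed Trbv14, at 215 CPM in the 8-month knockout and 3283 CPM in the 8-month wild type, against 362 CPM and 405 CPM in the 2-month knockout and wild type.

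The same wild-type library held little Cd4, the coreceptor of helper T cells. Cd4 stood at 202 CPM in the 8-month knockout and 24.6 CPM in the 8-month wild type, against 127 CPM and 115 CPM in the 2-month knockout and wild type. The log2 fold at 8 months was 3.03 (2.90 to 3.17). Cd8a, the coreceptor of cytotoxic T cells, was at 412 CPM in the 8-month knockout and 556 CPM in the 8-month wild type (log2 -0.43). Of the counts of both coreceptors together, Cd4 took 32.9% in the 8-month knockout, 4.24% in the 8-month wild type, 19.2% in the 2-month knockout and 19.9% in the 2-month wild type. The 8-month libraries thus lay on either side of the younger pair, with the wild type farther from it.

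**Figure D3:**
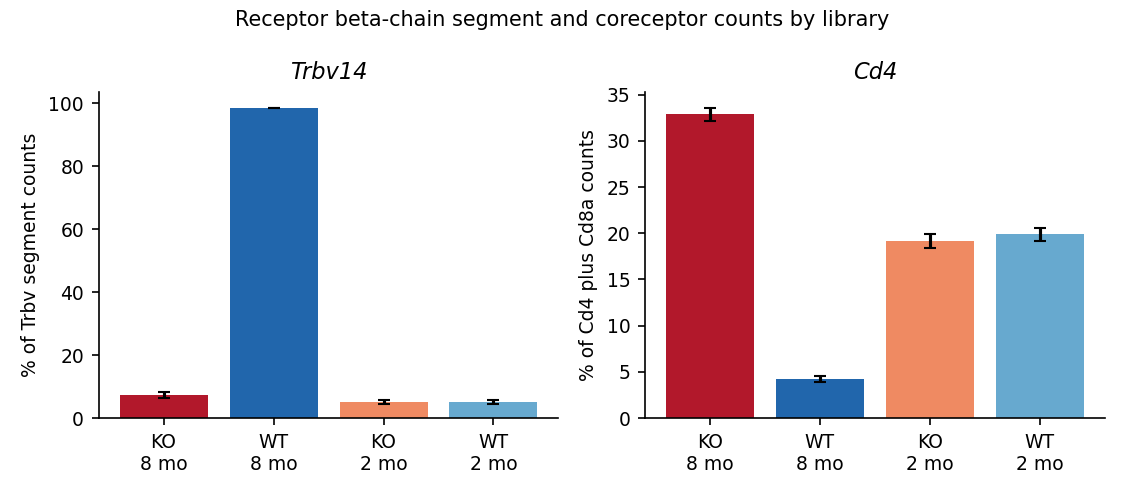
Share of Trbv segment counts taken by Trbv14 (left, percent) and share of Cd4 in Cd4 plus Cd8a counts (right, percent) in each library, with 95% exact intervals for counting error as bars. Trbv14 reaches 98.6% in the 8-month wild type, where Cd4 takes 4.24%.

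Of 7 genes of the CD4 lineage, 6 were measured; all 6 were higher in the 8-month knockout, 4 of them by 2-fold. Cd40lg, the ligand by which helper cells signal to B cells, had 6.25 CPM in the 8-month knockout and 0.944 CPM in the 8-month wild type, with 4.76 CPM and 2.48 CPM in the 2-month knockout and wild type. The costimulatory receptor Icos and the CD4 lineage factor Zbtb7b, both chosen after their values were seen, had log2 folds of 1.20 and 1.07. For 5 of the 6 genes the 8-month wild type was the lowest library, and for 5 the 8-month knockout was the highest. Over all measured genes these shares were 25.0% and 35.6%.

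Homing receptors and integrins did not share a direction. Of 26 listed, 23 were measured, with 13 above 0, 2 at 2-fold higher, 3 at 2-fold lower and a median of 0.07. Among the lowest, Itgae, the integrin chain CD103, stood at 62.4 CPM in the 8-month knockout and 272 CPM in the 8-month wild type, against 136 CPM and 108 CPM in the 2-month knockout and wild type. Ccr9, the receptor that guides T cells to the small intestine, had 4.02 CPM in the 8-month knockout and 21.1 CPM in the 8-month wild type, with 5.63 CPM and 3.27 CPM in the 2-month pair.

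Genes of type 1 effector function were higher in the 8-month knockout. Of 15 such genes 7 (46.7%, against 10.4% of all measured genes) were 2-fold higher and none was 2-fold lower. The median log2 fold was 0.79, and the 8-month wild type was the lowest library for 10 of them. The median between the 2-month libraries was -0.26. Fasl, the death ligand of cytotoxic cells, had 8.22 CPM in the 8-month knockout and 0.708 CPM in the 8-month wild type, against 3.54 CPM and 6.27 CPM in the 2-month knockout and wild type (log2 3.37 at 8 months, 2.78 to 4.40). Ifng, the main type 1 cytokine, had 108 counts in the 8-month knockout and 14 in the 8-month wild type, or 4.62 CPM and 0.661 CPM, and its log2 fold was 2.64 (2.00 to 3.73). In the 2-month knockout and wild type Ifng stood at 1.51 CPM and 2.05 CPM, so both 8-month libraries lay outside that pair, on opposite sides.

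Both chains of the interleukin-18 receptor, through which Ifng can be induced, were also lowest in the 8-month wild type. Il18r1 stood at 57.9 CPM in the 8-month knockout and 9.91 CPM in the 8-month wild type, with 37.7 CPM and 37.8 CPM in the 2-month knockout and wild type. Il18rap, chosen after its values were seen, stood at 49.9 CPM and 8.68 CPM in the 8-month knockout and wild type, with 36.1 CPM and 41.1 CPM in the 2-month pair. Members of the list that were lower in the knockout included Hlx, a homeobox factor, at 2.10 CPM in the knockout and 4.25 CPM in the wild type, and Cxcr3, the receptor for interferon-induced chemokines, at 41.8 CPM and 65.9 CPM. Cytotoxic granule genes did not share a direction, with 5 of 10 measured genes above 0 and 5 below, 1 at 2-fold higher, 1 at 2-fold lower and a median of 0.02. The lowest was Gzmk, a granzyme, at 1.03 CPM in the 8-month knockout and 2.69 CPM in the 8-month wild type. The highest was Prf1, the pore-forming protein, at 31.0 CPM in the 8-month knockout and 8.31 CPM in the 8-month wild type. The granzyme Gzmb, chosen after its values were seen, had 194 CPM in the knockout and 123 CPM in the wild type, far under the 927 CPM and 959 CPM of the 2-month knockout and wild type. Some granzyme genes are similar in sequence, so reads may be split between those.

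Of 23 cytokine receptors, 7 (30.4%) were 2-fold higher and 1 (4.35%) was 2-fold lower in the 8-month knockout. Over all measured genes these shares were 10.4% and 6.45%. Ifngr1, the ligand-binding chain of the interferon-gamma receptor, stood at 341 CPM in the 8-month knockout and 126 CPM in the 8-month wild type, against 227 CPM and 223 CPM in the 2-month knockout and wild type. Il9r, the lowest, had 2.78 CPM in the knockout and 6.09 CPM in the wild type. Il2rb, the beta chain of the interleukin-2 receptor, ran lower in the knockout, at 361 CPM against 605 CPM in the wild type, whereas the alpha chain Il2ra had 183 CPM in the knockout and 82.5 CPM in the wild type. The 3 receptors Il2ra, Il7r and Il12rb2, chosen with Il2rb after their values were seen, each had their lowest level in the 8-month wild type. Il7r, the receptor of the survival factor interleukin-7, had 123 CPM in the 8-month knockout and 50.6 CPM in the 8-month wild type. Il12rb2, the signalling chain of the interleukin-12 receptor, had 107 CPM and 41.3 CPM.

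Interferon-inducible GTPases, which attack membranes around intracellular pathogens, were mostly higher in the 8-month knockout. Of 17 listed genes 16 were measured, of which 8 were 2-fold higher and none was 2-fold lower, and the 8-month wild type was the lowest library for 13. Gbp6 stood at 291 CPM in the 8-month knockout and 80.5 CPM in the 8-month wild type, against 244 CPM and 211 CPM in the 2-month knockout and wild type. Iigp1, an immunity-related GTPase, stood at 243 CPM and 62.9 CPM in the 8-month knockout and wild type and at 152 CPM and 161 CPM in the 2-month pair. The median of the list was 0.98 at 8 months and 0.11 at 2 months. Between ages it was -0.88 in the wild type and -0.04 in the knockout. Exceptions were Gbp2, at 274 CPM in the 8-month knockout and 332 CPM in the 8-month wild type, and Ifi47, at 198 CPM and 237 CPM. Guanylate-binding proteins are close paralogs, so reads may be shared among them.

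A wider list of interferon-stimulated genes had smaller folds, with a median of 0.19 at 8 months and -0.17 at 2 months. Of 37 measured genes 5 (13.5%) were 2-fold higher and 1 (2.7%) was 2-fold lower at 8 months. The shares over all measured genes were 10.4% and 6.45%. Rsad2, the antiviral enzyme viperin, had 8.00 CPM and 1.98 CPM in the 8-month knockout and wild type. It was also 2-fold higher in the knockout at 2 months, at 4.41 CPM against 1.92 CPM. Oas1a, a sensor of double-stranded RNA, was lower at both ages, at 2.27 CPM in the 8-month knockout and 5.29 CPM in the 8-month wild type and at 3.37 CPM and 6.97 CPM in the 2-month knockout and wild type.

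Promoter stretches of these GTPases are shown because most of the group differed in the same direction. A motif of 2 GAAA repeats with any 2 bases between them, on either strand, as in elements bound by interferon-activated factors, was present in 9 of the 10 promoters of the list found in RefSeq, against 3.24% of 8748 promoters of measured genes. Each promoter spans 250 bases before and 50 bases after the annotated start. The 3 windows below are those of the highest folds among the promoters used that hold a match before the start, read 5′ to 3′ on the gene's strand, with the match in capitals (RefSeq, GRCm38.p6). A match is a description and not a shown site of binding.
Gbp7, chr3:142530258-142530317, plus strand: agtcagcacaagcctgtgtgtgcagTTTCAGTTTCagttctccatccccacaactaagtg
Irgm2, chr11:58214888-58214947, plus strand: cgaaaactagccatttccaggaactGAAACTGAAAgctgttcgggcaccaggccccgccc
Tgtp2, chr11:49064248-49064307, minus strand: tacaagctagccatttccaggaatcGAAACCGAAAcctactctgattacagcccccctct

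Gbp7 carries the element on the opposite strand, whereas Irgm2 and Tgtp2 carry it on the gene's own strand. In the 8-month knockout and wild type, Gbp7 stood at 224 CPM and 74.2 CPM, and its log2 fold was 1.59. The folds of Irgm2 and Tgtp2 were 1.09 and 1.07.

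Several killer lectin-like receptors, shared by natural killer cells and some CD8+ T cells, were low in the 8-month wild type. Klrc1, the inhibitory receptor NKG2A, had 386 counts in the 8-month knockout and 9 in the 8-month wild type, or 16.5 CPM and 0.425 CPM, against 14.3 CPM and 17.1 CPM in the 2-month knockout and wild type. Klrc2 had 175 counts in the 8-month knockout and 0 in the 8-month wild type. With 3 counts put in place of that 0 it was 52.9-fold higher, and the interval of its log2 fold began at 5.412. Klra7 had 155 and 0 counts, 46.9-fold higher by the same rule, and the interval of its log2 fold began at 5.235. Klrk1, the activating receptor NKG2D, stood at 33.9 CPM in the 8-month knockout and 4.06 CPM in the 8-month wild type, with 30.7 CPM and 34.2 CPM in the 2-month pair. For these genes the 8-month knockout lay near or above the younger libraries and the 8-month wild type lay apart. On the same list, the signalling adaptors Fcer1g and Tyrobp, which myeloid cells also use, had the opposite sign. Fcer1g stood at 4.62 CPM in the 8-month knockout and 19.4 CPM in the 8-month wild type, and Tyrobp at 11.3 CPM and 16.1 CPM. Of 18 natural killer cell genes 8 passed the level filter. Of these, 5 (62.5%) were 2-fold higher and 1 (12.5%) was 2-fold lower, against 10.4% and 6.45% of all measured genes. The filter admits a gene that is high in the knockout library alone, as Klrc2 and Klra7 were at 8 months. Among measured genes with a mean below 5 CPM, 32.5% were 2-fold higher. Summed over all 18 natural killer cell genes, the level was 228 CPM in the 8-month knockout, 94.8 CPM in the 8-month wild type, 166 CPM in the 2-month knockout and 205 CPM in the 2-month wild type. These receptors are close paralogs, so single members are uncertain.

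Cytokines of other helper subsets were weak but present in the 8-month knockout. Of 12 listed type 2 genes 7 were measured, and 2 (28.6%) were 2-fold higher. Of 10 listed type 17 genes 3 were measured, and 1 (33.3%) was 2-fold higher. None was 2-fold lower, and 10.4% of all measured genes were 2-fold higher. The filter admits a gene that is high in the knockout library alone. Il17a, the defining cytokine of type 17 cells, had 57 counts in the 8-month knockout and 0 in the 8-month wild type, at least 17.2-fold higher, and 2 and 0 counts in the 2-month knockout and wild type. Il13, a type 2 cytokine, stood at 5.78 CPM in the 8-month knockout and 1.65 CPM in the 8-month wild type, against 0.522 CPM and 1.001 CPM in the 2-month pair. Il10, an inhibitory cytokine, stood at 20.3 CPM and 8.59 CPM in the 8-month knockout and wild type. Gata3, the type 2 lineage factor, was at 23.8 CPM in the knockout and 34.1 CPM in the wild type, and Ccr6, a receptor of type 17 cells, was at 60.9 CPM and 59.98 CPM.

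**Figure D4:**
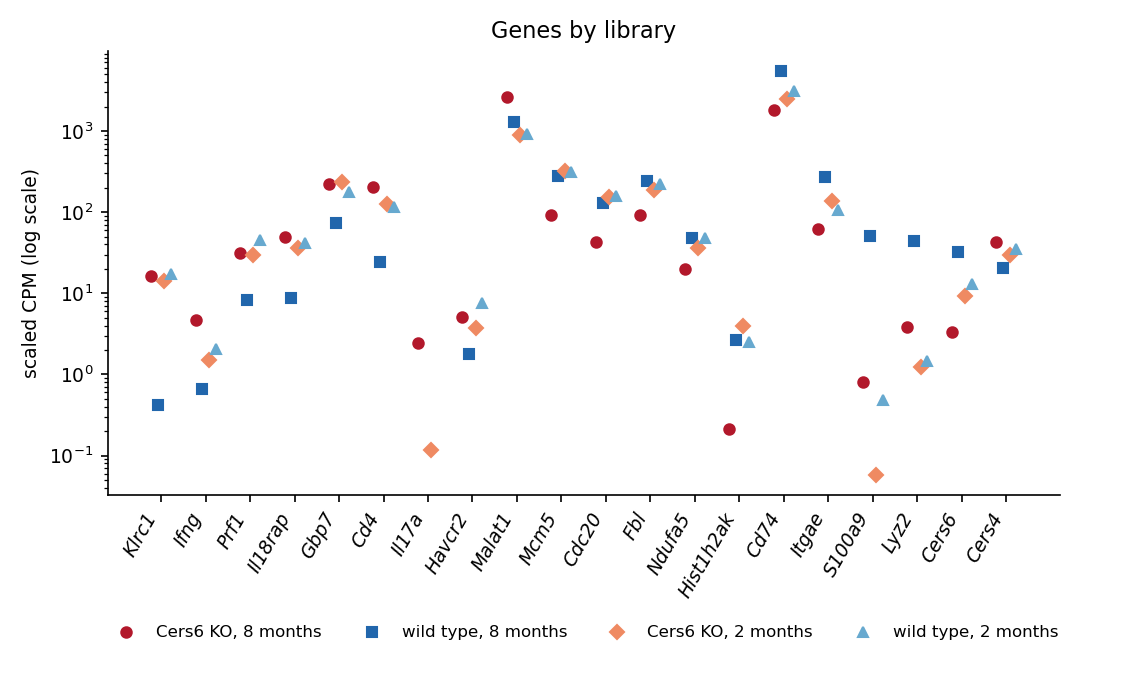
Scaled CPM (log axis) of 20 genes, chosen after their values were seen, in the 8-month knockout and wild type and the 2-month knockout and wild type libraries. Il17a is not drawn in the wild-type libraries, where it had 0 counts; Klrc1, Ifng and Il18rap are low in the 8-month wild type, and Mcm5, Cdc20 and Fbl are low in the 8-month knockout.

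DNA replication genes were lower in the 8-month knockout than in the other libraries, with summed levels of 2622 CPM in the 8-month knockout, 4993 CPM in the 8-month wild type, 6184 CPM in the 2-month knockout and 5826 CPM in the 2-month wild type. Of 46 measured genes 19 (41.3%) were 2-fold lower and none was 2-fold higher, and the 8-month knockout was the lowest of the 4 libraries for 45, against 38.4% of all measured genes. Rfc3, a subunit of the clamp loader, stood at 11.9 CPM in the 8-month knockout and 37.2 CPM in the 8-month wild type, against 40.2 CPM and 42.5 CPM in the 2-month knockout and wild type (log2 -1.64, -1.85 to -1.45). Cdc45, a part of the replicative helicase, stood at 20.9 CPM and 64.4 CPM in the 8-month knockout and wild type and at 72.3 CPM and 77.7 CPM in the 2-month pair. Only Dna2, a nuclease of Okazaki fragment processing, was above 0 in this list, at 14.0 CPM in the knockout and 10.9 CPM in the wild type. Mcm5, a helicase subunit, and Pcna, the sliding clamp, both chosen after their values were seen, had log2 folds of -1.58 and -1.38. The median of the list was -0.83 at 8 months and 0.05 at 2 months. Between ages it was -0.21 in the wild type and -1.16 in the knockout.

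Mitosis and spindle genes summed to 3425 CPM in the 8-month knockout, 5509 CPM in the 8-month wild type, 8642 CPM in the 2-month knockout and 7204 CPM in the 2-month wild type, so both 8-month libraries lay below the 2-month ones. Of 56 measured genes, 19 (33.9%) were 2-fold lower and none was 2-fold higher, with the 8-month knockout lowest for 53. Cdc20, which activates the anaphase-promoting complex, stood at 43.1 CPM in the 8-month knockout and 131 CPM in the 8-month wild type, against 152 CPM and 157 CPM in the 2-month knockout and wild type. Spc25, a kinetochore protein, stood at 13.8 CPM and 38.2 CPM in the 8-month knockout and wild type and at 45.6 CPM and 44.1 CPM in the 2-month pair; its gene lies on chromosome 2 within 1000000 bases of Cers6. At the other end of the list, Pttg1, the securin that holds sister chromatids together until anaphase, had 22.9 CPM in the knockout and 17.04 CPM in the wild type, and the kinesin Kif20b had 44.4 CPM and 41.9 CPM. The median log2 fold was -0.70 at 8 months and 0.19 at 2 months.

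The replication and mitosis promoters are shown for the same reason as those of the GTPases. The letters TTTCGCGC or TTTGGCGC, on either strand, as in elements bound by E2F factors, were present in 10 of the 38 replication promoters found (26.3%), against 1.69% of promoters of measured genes. The box CCAAT was present in 35 of 47 mitosis promoters (74.5%) against 39.0%, and the letters TTTGAA, as in the cell cycle homology region, in 33 (70.2%) against 11.7%. Windows of the lowest folds among the promoters used that hold a match before the start follow, with the match in capitals (RefSeq, GRCm38.p6). The first 3 carry an E2F-type match, and in Mcm5 matches to both spellings overlap in 1 run; the last 2 carry CCAAT boxes.
Rfc3, chr5:151651209-151651268, minus strand: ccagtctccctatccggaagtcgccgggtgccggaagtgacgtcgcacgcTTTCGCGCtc
Mcm5, chr8:75109334-75109393, plus strand: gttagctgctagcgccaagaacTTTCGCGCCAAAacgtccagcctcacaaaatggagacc
Mcm6, chr1:128359719-128359778, minus strand: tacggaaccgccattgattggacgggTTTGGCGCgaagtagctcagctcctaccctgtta
Cdc20, chr4:118437344-118437403, minus strand: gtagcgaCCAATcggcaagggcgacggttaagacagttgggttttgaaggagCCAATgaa
Spc25, chr2:69206214-69206273, minus strand: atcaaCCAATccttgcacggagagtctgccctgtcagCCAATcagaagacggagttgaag

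Of 41 clustered histone genes 14 passed the level filter. Hist1h2ak, a histone H2A gene, had 5 counts in the 8-month knockout and 56 in the 8-month wild type, against 69 and 58 counts in the 2-month knockout and wild type. Hist1h2ae had 1.498 CPM in the 8-month knockout and 8.40 CPM in the 8-month wild type, and 13.3 CPM and 11.8 CPM in the 2-month pair. The linker histone gene Hist1h1c ran opposite, at 31.4 CPM in the 8-month knockout and 12.2 CPM in the 8-month wild type, with 10.5 CPM and 10.8 CPM in the 2-month knockout and wild type. Summed over all 41 genes the level was 68.3 CPM in the 8-month knockout, 124 CPM in the 8-month wild type, 161 CPM in the 2-month knockout and 151 CPM in the 2-month wild type. Clustered histone genes are near-identical, so the count of a single one is uncertain.

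Cell cycle entry genes did not share a direction. Of 26 measured genes of the D- and E-type cyclins, their kinases, inhibitors and the E2F family, 8 were above 0 and 18 below, none was 2-fold higher and 1 was 2-fold lower. That gene, E2f2, an activating E2F factor, stood at 87.6 CPM in the 8-month knockout and 192 CPM in the 8-month wild type, with 181 CPM and 183 CPM in the 2-month knockout and wild type. Cdk6, a kinase that partners D cyclins, stood at 11.7 CPM in the 8-month knockout and 7.03 CPM in the 8-month wild type, and Rb1, the retinoblastoma protein that restrains E2F, at 94.4 CPM and 58.1 CPM. Those 2 genes were also higher in the 2-month knockout than in the 2-month wild type, with log2 folds of 0.65 and 0.46.

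Genes of ribosome production were lower in the 8-month knockout. Of 45 measured ribosome biogenesis genes 10 (22.2%) were 2-fold lower and none was 2-fold higher. The median log2 fold was -0.74, and the 8-month knockout was the lowest library for 41. For 29 genes often used as loading references the median was -0.68, with the 8-month knockout lowest for all 29. Gar1, a protein of the RNA pseudouridylation complex, stood at 18.3 CPM in the 8-month knockout and 50.4 CPM in the 8-month wild type, against 35.8 CPM and 51.7 CPM in the 2-month knockout and wild type. Ubtf, a transcription factor of RNA polymerase I, stood at 91.2 CPM and 245 CPM in the 8-month knockout and wild type, with 145 CPM and 163 CPM in the 2-month pair, so here both 8-month libraries lay outside the younger ones. Tsr1, which matures the small subunit, had 18.3 CPM in the knockout and 16.7 CPM in the wild type. Among 78 cytosolic ribosomal proteins 2 were 2-fold lower and 77 were below 0, with a median of -0.48, against -0.52 for the 120 measured genes at 1000 CPM or more. Rps2 was the lowest of them, at 2303 CPM in the 8-month knockout and 4766 CPM in the 8-month wild type.

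Nuclear-encoded respiratory chain genes were lower as well. Of 37 complex I genes 9 (24.3%) were 2-fold lower and none was 2-fold higher, and the 8-month knockout was lowest for 35. Ndufa5, an accessory subunit, stood at 20.2 CPM in the 8-month knockout and 47.9 CPM in the 8-month wild type, against 35.9 CPM and 48.4 CPM in the 2-month knockout and wild type. Ndufs8, a subunit with iron-sulphur clusters, stood at 33.4 CPM and 74.6 CPM in the 8-month knockout and wild type. Of 39 genes of complexes II to V all were below 0 and 4 were 2-fold lower, the lowest being Atp5g1, a ring subunit of ATP synthase, at 31.3 CPM in the 8-month knockout and 81.4 CPM in the 8-month wild type. All 60 mitochondrial ribosomal proteins were below 0, 8 of them by 2-fold, against 50.4% of measured genes below 0. The medians of these 3 lists were -0.80, -0.65 and -0.71 at 8 months, and -0.22, -0.16 and -0.15 at 2 months. With the length trend over all genes removed they were -0.50, -0.38 and -0.47, and that of DNA replication was -0.84.

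Of 15 genes of the mitochondrial genome, 11 were measured and all 11 were lower. The widest gap was that of mt-Nd6, a complex I subunit, at 237 CPM in the 8-month knockout and 790 CPM in the 8-month wild type, with 645 CPM and 565 CPM in the 2-month knockout and wild type. By contrast mt-Co1, a subunit of cytochrome oxidase, had 10290 CPM and 11280 CPM in the 8-month knockout and wild type. The 8-month wild type was the highest library for 7 of the 11, against 23.6% of all measured genes.

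Most glycolytic genes were lower in the 8-month knockout. Of 25 genes 18 were below 0, 7 (28.0%) were 2-fold lower and 1 (4.0%) was 2-fold higher. Over all measured genes 50.4% were below 0, 6.45% were 2-fold lower and 10.4% were 2-fold higher. Pfkl, the liver form of phosphofructokinase, stood at 148 CPM in the 8-month knockout and 504 CPM in the 8-month wild type, against 388 CPM and 452 CPM in the 2-month knockout and wild type. Tpi1, triosephosphate isomerase, stood at 567 CPM and 1854 CPM in the 8-month knockout and wild type, with 2015 CPM and 2150 CPM in the 2-month pair. Eno2, the neuronal enolase, was the gene at 2-fold higher, at 22.9 CPM in the 8-month knockout and 4.53 CPM in the 8-month wild type, with 5.28 CPM and 5.36 CPM in the 2-month knockout and wild type. Its abundant relative Eno1, chosen after its values were seen, had 1747 CPM and 3990 CPM. The lactate dehydrogenase chain Ldha, likewise chosen, had 1078 CPM in the 8-month knockout and 3194 CPM in the 8-month wild type. Summed over the list, glycolytic genes made 16590 CPM in the 8-month knockout, 31680 CPM in the 8-month wild type, 35350 CPM in the 2-month knockout and 37040 CPM in the 2-month wild type.

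Genes often used as loading references were not level between these libraries. All 29 listed were lower in the 8-month knockout, 4 of them by 2-fold, with a median of -0.68, or -0.43 when libraries were scaled by size alone. Close to that -0.68 were the medians of ribosome biogenesis (-0.74), mitochondrial ribosomal protein (-0.71), mitosis (-0.70) and complex II to V (-0.65) genes. Whether those lists differ beyond the shift of the reference genes was not tested. Actb, cytoplasmic beta actin, stood at 3226 CPM in the 8-month knockout and 6773 CPM in the 8-month wild type, against 6635 CPM and 7507 CPM in the 2-month knockout and wild type. Ppia, cyclophilin A, stood at 627 CPM and 1722 CPM in the 8-month pair. Vps29, a retromer subunit, was nearest to 0, at 42.6 CPM in the knockout and 50.8 CPM in the wild type. Of 36 proteasome genes all were below 0 and 1 was 2-fold lower, and of 36 actin and tubulin cytoskeleton genes 8 were 2-fold lower and 1 was 2-fold higher. Stmn1, a tubulin-binding protein abundant in dividing cells, had 100 CPM in the knockout and 384 CPM in the wild type, while the focal adhesion protein Vcl had 16.1 CPM and 7.74 CPM.

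**Figure D5:**
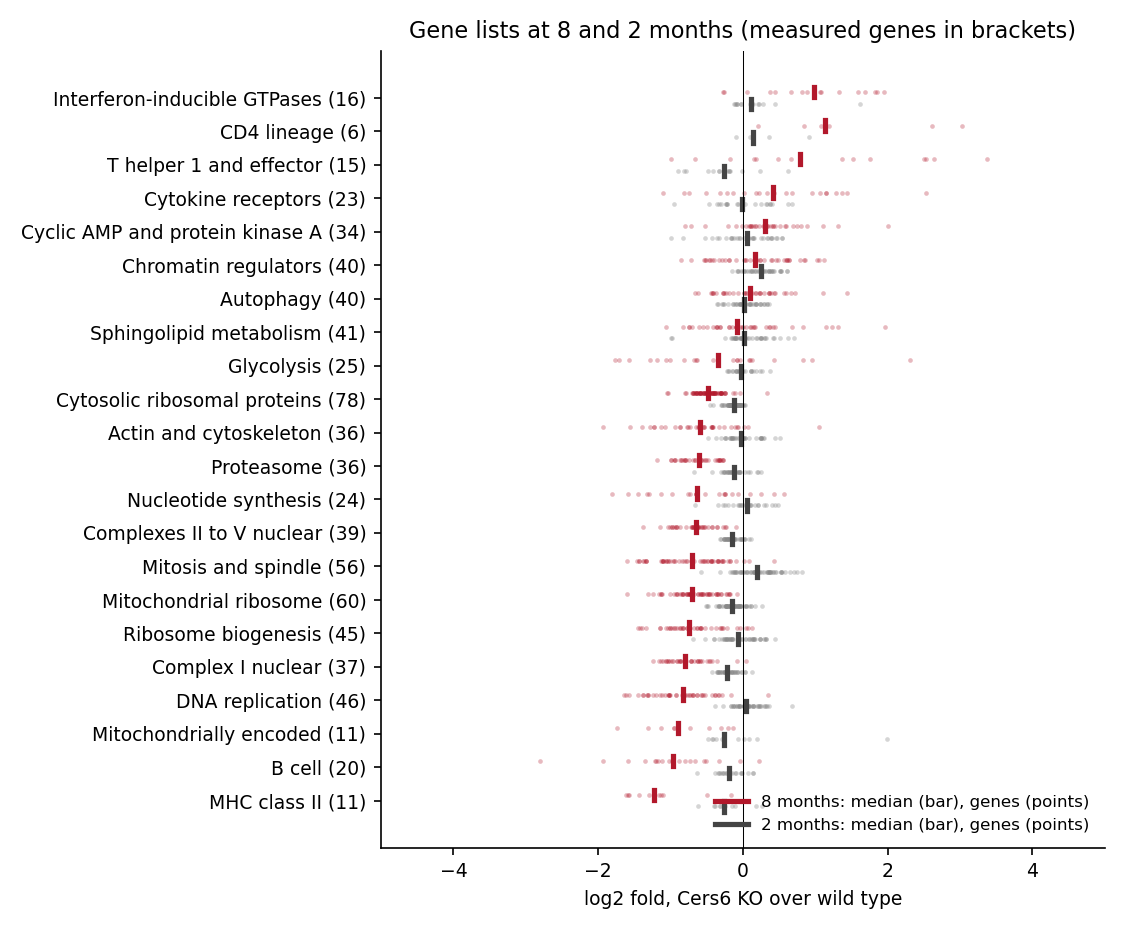
Log2 fold of the Cers6 knockout over the wild type for the measured genes of 22 lists, at 8 months (red, upper line of each pair) and 2 months (grey, lower line); bars are medians. DNA replication has a median of -0.83 at 8 months and 0.05 at 2 months, and interferon-inducible GTPases have 0.98 and 0.11.

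Class II and most B cell genes were higher in the 8-month wild type than in any other library. All 11 class II genes were highest there, against 23.6% of measured genes, and 9 of the 11 were 2-fold lower in the 8-month knockout. H2-Ab1, a class II beta chain, stood at 512 CPM in the 8-month knockout and 1563 CPM in the 8-month wild type, against 671 CPM and 875 CPM in the 2-month knockout and wild type. H2-Eb2, an atypical beta chain, differed least, at 61.8 CPM and 69.2 CPM in the 8-month knockout and wild type. Of 22 B cell markers 20 were measured, of which 9 were 2-fold lower in the knockout and 19 were highest in the 8-month wild type. Fcer2a, the low-affinity IgE receptor CD23, stood at 12.1 CPM in the 8-month knockout and 84.9 CPM in the 8-month wild type, with 11.8 CPM and 12.7 CPM in the 2-month knockout and wild type. Cd79b, a signalling chain of the B cell receptor, stood at 196 CPM and 748 CPM in the 8-month pair. The list was not uniform. Cr2 was higher in the 8-month knockout, at 28.98 CPM against 24.78 CPM in the 8-month wild type. Ebf1 stood at 60.35 CPM and 62.15 CPM, with an interval of the log2 fold (-0.15 to 0.07) that includes 0. Summed, the B cell list made 5460 CPM in the 8-month knockout, 10670 CPM in the 8-month wild type, 5886 CPM in the 2-month knockout and 6672 CPM in the 2-month wild type, so all 4 preparations held B cell RNA. The part of B cell content in the class II difference was not tested.

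Most myeloid genes that passed the level filter were also highest in the 8-month wild type. These were 9 of 10 on the neutrophil list and 12 of 13 on the monocyte and macrophage list. The filter admits a gene that is high in that library alone. S100a9, a calprotectin chain of neutrophils and monocytes, had 19 counts in the 8-month knockout and 1074 in the 8-month wild type, or 0.813 CPM and 50.7 CPM, against 0.0581 CPM and 0.479 CPM in the 2-month knockout and wild type. Lyz2, lysozyme of macrophages and granulocytes, stood at 3.90 CPM in the 8-month knockout and 44.5 CPM in the 8-month wild type, with 1.22 CPM and 1.48 CPM in the 2-month pair. Chil3, a chitinase-like protein of macrophages, had 0 counts in the 8-month knockout and 141 in the 8-month wild type. Prtn3, on the neutrophil list, ran opposite, at 3.08 CPM in the 8-month knockout and 1.42 CPM in the 8-month wild type. Over the 19 listed neutrophil genes, of which 10 passed the level filter, the sum was 13.6 CPM in the 8-month knockout, 147 CPM in the 8-month wild type, 2.15 CPM in the 2-month knockout and 5.62 CPM in the 2-month wild type. For 26 monocyte and macrophage genes, 13 of which passed the filter, it was 318 CPM, 492 CPM, 241 CPM and 263 CPM in the same order, of which Mpeg1, a perforin-like protein, gave 264 CPM, 238 CPM, 209 CPM and 214 CPM. Both 8-month libraries lay above their 2-month counterparts in these sums, the wild type by more.

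Other blood cell lists were mixed. Dendritic cell genes summed to 1050 CPM in the 8-month knockout, 854 CPM in the 8-month wild type, 808 CPM in the 2-month knockout and 905 CPM in the 2-month wild type. Most of this was Irf8, a factor that lymphocytes also use, chosen after its values were seen, at 890 CPM in the 8-month knockout and 603 CPM in the 8-month wild type. Plasma cell genes summed to 581 CPM in the 8-month knockout, 1017 CPM in the 8-month wild type, 485 CPM in the 2-month knockout and 523 CPM in the 2-month wild type. Of 11 measured, 8 were below 0 and 3 above. Irf4 and Prdm1 were the highest, at 193 CPM and 21.96 CPM in the 8-month knockout and 83.96 CPM and 13.69 CPM in the 8-month wild type. Basophil and mast cell genes summed to 62.8 CPM in the 8-month knockout, 136 CPM in the 8-month wild type, 51.3 CPM in the 2-month knockout and 46.5 CPM in the 2-month wild type. Igha, the constant region of IgA, had the lowest fold of the plasma cell list. It stood at 18.5 CPM in the 8-month knockout and 268 CPM in the 8-month wild type, against 22.8 CPM and 21.8 CPM in the 2-month knockout and wild type. Pf4 and Ppbp, platelet chemokines, were low but higher in both 8-month libraries, Ppbp at 7.41 CPM in the knockout and 3.07 CPM in the wild type, with 0.581 CPM and 0.610 CPM in the 2-month pair.

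Leaving out predicted models, pseudogenes and receptor segments, Dnm1 had the highest fold of the genes with 10 CPM or more in either 8-month library. Dnm1, dynamin 1, a membrane-fission GTPase best known from synapses, had 595 counts in the 8-month knockout and 8 in the 8-month wild type, or 25.5 CPM and 0.378 CPM, against 3.95 CPM and 3.61 CPM in the 2-month knockout and wild type (log2 5.76, 5.09 to 7.29). Both 8-month libraries thus lay outside the younger pair, on opposite sides. Per length it reached 6.35 FPKM in the 8-month knockout, below the 92.5 FPKM of Dnm2, the dynamin found in most tissues. In the 8-month wild type Dnm1 was at 0.0794 FPKM and Dnm2 at 61.0 FPKM.

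The next genes described encode extracellular matrix proteins and were high in the 8-month knockout alone. Agrn, the proteoglycan agrin, stood at 52.1 CPM in the 8-month knockout and 5.62 CPM in the 8-month wild type, with 9.17 CPM and 8.93 CPM in the 2-month knockout and wild type. Lama5, a laminin chain, stood at 21.9 CPM and 2.17 CPM in the 8-month pair and at 3.08 CPM and 5.01 CPM in the 2-month pair. Ltbp4, which anchors latent TGF-beta to the matrix, stood at 12.3 CPM and 0.944 CPM, with 0.813 CPM and 1.13 CPM. Besides Klrc1, the remainder of the 12 highest were the exchange factor gene Arhgef25, the cathepsin gene Ctsf, Itih5, the zinc finger factor gene Plag1, the phosphatase gene Ppm1j, Camk2b, a calmodulin-dependent kinase, and the kinase gene Lmtk3, with log2 folds of 3.11 to 4.15. Capn11, a calpain, had 189 counts in the 8-month knockout and 4 in the 8-month wild type, and 0 in both 2-month libraries.

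Besides Cers6, the 12 lowest genes held 3 of the neutrophil list (S100a9, S100a8 and Mmp9) and 4 of the monocyte and macrophage list (Clec4n, Lyz2, Pla2g7 and Il1rn). Mmp9, a gelatinase of neutrophils, stood at 0.385 CPM in the 8-month knockout and 15.9 CPM in the 8-month wild type, and Clec4n, the fungal receptor dectin-2, at 0.942 CPM and 19.2 CPM. The others were F10, coagulation factor X, Lifr, the receptor of leukaemia inhibitory factor, the lectin gene Clec4d, and Irg1, the itaconate-producing enzyme. Among genes lowest in the 8-month knockout itself was Dhrs4, a carbonyl reductase, at 2.40 CPM in the 8-month knockout and 20.7 CPM in the 8-month wild type, with 17.2 CPM and 16.9 CPM in the 2-month knockout and wild type. That gene had 56 and 438 counts in the 8-month pair, and its log2 fold was -3.06 (-3.54 to -2.71).

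Of 11276 genes measured at both ages, 36 (0.319%) were 2-fold higher in the knockout at both and 24 (0.213%) were 2-fold lower at both. A further 32 (0.284%) were 2-fold higher at 8 months and 2-fold lower at 2 months, and 2 (0.0177%) the reverse. The 2 contrasts use different libraries. In both, the median log2 fold of protein-coding genes rose from the shortest to the longest length class. It ran from -0.39 to 0.33 at 8 months and from -0.17 to 0.22 at 2 months. The part of length in the genes shared between ages was not tested. Kcna3, a potassium channel that helps to sustain calcium entry into T cells, stood at 36.0 CPM in the 8-month knockout and 8.87 CPM in the 8-month wild type, and at 32.9 CPM in the 2-month knockout and 11.4 CPM in the 2-month wild type. Both knockout libraries lay above both wild-type libraries. Atp7a, a copper transporter, had the same order, at 15.8 CPM in the 8-month knockout, 4.15 CPM in the 8-month wild type, 15.04 CPM in the 2-month knockout and 6.36 CPM in the 2-month wild type. Clic5, Gprin3, Chml and Sptb were also among the 8 highest. Il1rn, the interleukin-1 receptor antagonist, was lower in the knockout at both ages, at 3.68 CPM in the 8-month knockout and 35.8 CPM in the 8-month wild type, and at 0.755 CPM and 4.31 CPM in the 2-month knockout and wild type. The others of the 8 lowest were F10, Pla2g7, Irg1, Ccl9, Csf1r, Clec4e and Prg2, of which Pla2g7, Ccl9 and Csf1r are on the monocyte and macrophage list.

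Within 1000000 bases of Cers6 on chromosome 2, Ubr3, a ubiquitin ligase, had like folds at both ages. It stood at 84.5 CPM in the 8-month knockout and 55.0 CPM in the 8-month wild type, and at 82.8 CPM in the 2-month knockout and 53.3 CPM in the 2-month wild type, with log2 folds of 0.62 and 0.64. Stk39, a kinase that regulates ion cotransporters, had 23.8 CPM in the 8-month knockout and 49.6 CPM in the 8-month wild type, but 41.6 CPM and 39.6 CPM in the 2-month knockout and wild type. These neighbours were chosen after their values were seen.

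Biosynthetic and antioxidant lists held a larger share of lower genes than the 6.45% over all measured genes. Of 24 nucleotide synthesis genes 6 (25.0%) were 2-fold lower and none was 2-fold higher, with a median of -0.64 at 8 months and 0.05 at 2 months. Tyms, the thymidylate synthase, is also on the serine and one-carbon list and stood at 15.3 CPM in the 8-month knockout and 46.2 CPM in the 8-month wild type, against 45.0 CPM and 53.3 CPM in the 2-month knockout and wild type. Of 21 serine, one-carbon and polyamine genes 5 (23.8%) were lower and 1 was higher, with a median of -0.62. Of 28 antioxidant genes 5 (17.9%) were lower and 1 was higher, with a median of -0.33. The lowest of them was Slc7a11, the cystine transporter, at 3.34 CPM in the 8-month knockout and 13.5 CPM in the 8-month wild type, and the highest was the metallothionein Mt2, at 384 CPM and 138 CPM.

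Chemokine ligands and inflammatory genes were split. Of 13 measured chemokine ligands 2 (15.4%) were 2-fold higher and 5 (38.5%) were 2-fold lower, led by Ccl5, a ligand made by activated T cells, at 82.7 CPM in the 8-month knockout and 28.6 CPM in the 8-month wild type. The lowest was Ccl9, also on the monocyte and macrophage list, at 3.55 CPM and 21.7 CPM. Of 19 measured genes of the inflammatory and interleukin-1 family list 4 (21.1%) were higher and 3 (15.8%) were lower, with both interleukin-18 receptor chains the highest and Il1rn the lowest.

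Of 34 cyclic AMP and protein kinase A genes 3 (8.82%) were 2-fold higher and none was 2-fold lower. The shares over all measured genes were 10.4% and 6.45%. The highest was Adcy9, an adenylyl cyclase, at 2.57 CPM in the 8-month knockout and 0.566 CPM in the 8-month wild type. Next was Prkar2b, a regulatory subunit of the kinase, at 16.4 CPM and 6.51 CPM. Pkig, an inhibitor of the kinase, was the lowest, at 67.5 CPM in the knockout and 117 CPM in the wild type. The median of the list was 0.30, or 0.12 with the length trend removed.

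Autophagy genes differed little as a list, with a median of 0.11. Of 40 genes 2 (5.0%) were 2-fold higher and none was 2-fold lower, against 10.4% and 6.45% of all measured genes. Wipi1, a phosphoinositide-binding protein of the forming autophagosome, stood at 13.6 CPM in the 8-month knockout and 4.96 CPM in the 8-month wild type, with 5.40 CPM and 5.57 CPM in the 2-month knockout and wild type. Gabarapl1, a ubiquitin-like protein of autophagosomes, stood at 50.3 CPM and 23.3 CPM, with 27.8 CPM and 29.5 CPM. Both were high in the 8-month knockout alone. Tfeb, the transcription factor of lysosome genes, was the lowest, at 31.2 CPM in the 8-month knockout and 49.3 CPM in the 8-month wild type. Of 20 mitochondrial dynamics and mitophagy genes, Fis1, an outer-membrane fission factor, was the 1 at 2-fold, at 67.7 CPM in the knockout and 153 CPM in the wild type.

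Chromatin regulators were mixed, with 3 of 40 (7.5%, against 10.4% of all measured genes) at 2-fold higher and none lower. Their median of 0.17 turned to -0.19 with the length trend removed. Kmt2a, a histone H3 lysine methyltransferase with a long transcript, stood at 491 CPM in the 8-month knockout and 225 CPM in the 8-month wild type, against 296 CPM and 230 CPM in the 2-month knockout and wild type. Sirt1, a deacetylase, stood at 19.8 CPM and 35.8 CPM in the 8-month knockout and wild type. Among 24 measured genes of the BCL2 family and death receptors 3 (12.5%) were 2-fold higher and 1 (4.17%) was 2-fold lower. The shares over all measured genes were 10.4% and 6.45%. Bmf, a pro-apoptotic BH3-only protein, had 53.1 CPM in the 8-month knockout and 19.7 CPM in the 8-month wild type, with 24.7 CPM and 17.7 CPM in the 2-month pair.

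Inhibitory receptors did not share a direction, with 6 of 12 measured genes above 0 and 6 below. Havcr2, the receptor TIM-3, stood at 5.05 CPM in the 8-month knockout and 1.79 CPM in the 8-month wild type, against 3.72 CPM and 7.66 CPM in the 2-month knockout and wild type. Cd160 stood at 8.00 CPM and 18.3 CPM in the 8-month pair and at 24.1 CPM and 32.8 CPM in the 2-month pair. Pdcd1, the receptor PD-1, stood at 11.8 CPM in the 8-month knockout and 16.4 CPM in the 8-month wild type. Of 17 measured immediate early genes 2 (11.8%) were 2-fold higher and 1 (5.88%) was 2-fold lower, near the 10.4% and 6.45% of all measured genes. Fosl2, an AP-1 subunit, stood at 68.3 CPM in the 8-month knockout and 27.9 CPM in the 8-month wild type, while Jund, another AP-1 subunit, stood at 151 CPM and 476 CPM.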

How the data were processed

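RNA of activated splenic T cells was sequenced as 1 library for each genotype and age. Per the submitters' processing notes, CASAVA and STAR were used with GRCm38 (mm10); neither these notes nor the file headers name a counting tool, annotation release or strand setting. The authors deposited whole-number counts per gene, which were used for every comparison, and FPKM values, which equalled those computed from the counts, totals and gene lengths for all 35275 genes to a relative tolerance of 1e-6. The authors also deposited their own log2 fold changes, p-values and a normalized signal per library for each pair; the signal was not used. For 27 genes a symbol stored as a date was restored.

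Counts were scaled by TMM factors over the 4 libraries (edgeR 4.0.16, R 4.3.3). Log2 folds used a prior count of 2, and a gene was called at 2-fold. Intervals are 95% exact conditional intervals of the count ratio, or Clopper-Pearson intervals of a share. Scripts ran in Python 3.11.15 with scipy 1.17.1 and were tested on simulated data. With 1 library a group no test was possible, and no replicate could be left out. Promoters came from RefSeq (GRCm38.p6), the one nearest to the deposited start of each gene. Of 1771 entries in 70 lists, 1757 were in the table.

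The comparison, its lists and rules were chosen with earlier results of these data known. Genes named were the ceramide synthases, the 12 highest and 12 lowest folds at 10 CPM or more, the 8 highest and 8 lowest of those at 2-fold at both ages or with an 8-month library apart from all 3 others, and up to 4 extremes of each list. Others were chosen after their values were seen. Some genes that these rules name are not reported here. Alternatives were DESeq2 1.42.0 size factors, library size alone, upper-quartile factors, TMM on the 8-month libraries alone, other level filters and prior counts, removal of receptor and marker genes, and removal of the length trend.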

Additional observations from a re-analysis of the deposited data

Results flagged for a closer look

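The following genes and lists had folds of opposite sign at 8 and 2 months. None of these differences was tested, since each genotype and age has 1 library. Camk2b had a log2 fold of the knockout over the wild type of 3.124 at 8 months and -1.081 at 2 months. Klrc2 had 6.328 at 8 months, against 0 wild-type counts so that the value depends on the prior count, and -1.116 at 2 months. Havcr2 had 1.447 at 8 months and -1.026 at 2 months, and Epor, the erythropoietin receptor, had 2.495 and -1.615.

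The median over the type 1 effector list was 0.792 at 8 months and -0.262 at 2 months. That of the interferon-stimulated list was 0.189 at 8 months and -0.167 at 2 months. Among the 8 natural killer cell genes that passed the level filter, it was 2.674 and -0.734. That filter used the 8-month libraries and admits a gene that is high in the knockout alone. The mitosis and spindle list had -0.697 at 8 months and 0.189 at 2 months.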

How the results depend on the processing

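Counts of 2-fold genes moved with the scaling and the filter. Against 1248 higher and 775 lower genes, scaling by library size alone gave 1985 higher and 425 lower, and no filter beyond a count in either library gave 3063 and 2577. A minimum of 10 CPM gave 571 higher (with 541 lower, a split of 51.3% higher), and requiring the whole counting interval beyond 2-fold gave 709 and 489. Under the 8 other alternatives both counts stayed within 1.5 times. Lists with a median below 0 numbered 45 of 70 and stayed within 1.5 times under all alternatives run for them. No named gene at 2-fold, and no list with a median beyond 0.5, changed sign under any alternative that gave it a value. Lists nearer to 0 did: 11 of them turned positive with library size alone, among them sphingolipid metabolism and ceramide synthases. No paired analysis was possible because each group has 1 library and no replicate numbers. Leaving out either 8-month library would leave no comparison. Depth limits genes at a few counts: 3 counts correspond to 0.128 CPM in the 8-month knockout and 0.142 CPM in the 8-month wild type.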
